A study of Mus musculus with 24 samples.

Results

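The genes described here are those by which a cell makes cholesterol, takes it up, moves it and sends it out, measured in the liver and hypothalamus of obese mice given γ-oryzanol. They were taken from a list of 36 gene symbols. A member was every probe set, the group of array probes for 1 transcript, annotated to 1 of these symbols and to no other gene. Of the 36 listed genes, 32 had such a probe set, and together they had 67 of the 45101 probe sets on the array. The rule used no measured value. The 32 genes comprised 17 enzymes of sterol synthesis (7 from acetyl units to squalene and 10 from squalene to cholesterol) and 15 other genes, namely 4 of the control of the SREBP2 pathway, 4 efflux transporters, 4 of sterol absorption and transport inside the cell, 2 of lipoprotein uptake and its control, and 1 oxysterol receptor. Acat2, Soat1, Soat2 and Nr1h2 were listed and were not analysed here. Where a gene had several probe sets (19 genes), the gene was represented by the brightest of them, by its mean signal in the 12 arrays of a tissue.

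All mice were male ob/ob, a mutant that lacks functional leptin and becomes obese, and were 9 weeks old and ate normal chow. Treatment lasted 4 weeks. Regular-Orz mice received γ-oryzanol, a mixture of ferulic acid esters with plant sterols and triterpene alcohols from rice bran, and their controls, Regular-Veh, received methylcellulose. Nano-Orz mice received γ-oryzanol encapsulated in nanoparticles of PLGA, a biodegradable polymer, and their controls, Nano-Veh, received water. The vehicle of the Nano arm was thus no empty particle, so that γ-oryzanol and its carrier cannot be told apart there. Each group had 3 arrays of liver and 3 of hypothalamus, 24 in all. The labels give no dose, and whether both tissues came from the same mice is not given in the sources used here. The study chose the 3 mice of each group as representative ones.

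Cells build cholesterol from acetyl-CoA through mevalonate and squalene. SREBP2, the product of Srebf2, is the transcription factor that raises transcription of these enzymes when sterols in the endoplasmic reticulum are low. Its escort protein Scap carries it to the Golgi for activation, and the Insig proteins hold it back when sterols are plentiful. Oxysterols, in turn, activate the LXR receptors, whose targets include the efflux pumps Abca1 and Abcg1, the bile and gut sterol exporters Abcg5 and Abcg8, and Mylip, a ubiquitin ligase that lowers lipoprotein uptake. In the brain, oligodendrocytes use large amounts of cholesterol for myelin, and the brain makes its sterols locally.

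The synthesis genes share a feature of their promoters that the list did not use. RefSeq (GRCm38.p6) gave a promoter, 250 bases before to 50 after the start, for 25 of the 32 genes, of them 14 synthesis genes. The CCAAT box, which binds NF-Y, a partner of SREBP2, was searched as CCAAT on both strands. It was present in 14 of 14 synthesis genes and 8 of 11 other members, against 41.1% of the 27025 genes in the table and 37.4% of its 32851 promoters. The sterol response element was searched as TCACNCCAC on both strands. It was present in 1 of 14 synthesis genes, Hmgcs1, and in 0 of 11 other members, against 1.44% of all genes and 1.24% of all promoters. A match describes the letters only, and no match says nothing of SREBP2 binding. The 150 bases before the start are shown for 6 enzymes whose values are described below, as 5′ to 3′ on the gene's strand. The start is that of the promoter table, which for Lss lies inside the gene as RefSeq bounds it (chr10:76531565-76557139). Capitals mark CCAAT or its reverse complement ATTGG and, in Hmgcs1, the match to TCACNCCAC.
Hmgcs1, chr13:119690201-119690350, plus strand: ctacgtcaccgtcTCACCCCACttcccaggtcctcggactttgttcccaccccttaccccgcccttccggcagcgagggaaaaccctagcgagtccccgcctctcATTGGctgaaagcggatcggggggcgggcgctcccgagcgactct
Idi1, chr13:8885456-8885605, plus strand: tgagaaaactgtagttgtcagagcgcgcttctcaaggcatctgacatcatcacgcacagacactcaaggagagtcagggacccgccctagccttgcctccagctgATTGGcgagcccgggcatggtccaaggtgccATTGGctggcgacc
Mvd, chr8:122443423-122443572, minus strand: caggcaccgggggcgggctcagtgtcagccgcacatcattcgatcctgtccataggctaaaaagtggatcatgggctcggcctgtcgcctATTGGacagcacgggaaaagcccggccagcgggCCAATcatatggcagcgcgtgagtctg
Lss, chr10:76531455-76531604, plus strand: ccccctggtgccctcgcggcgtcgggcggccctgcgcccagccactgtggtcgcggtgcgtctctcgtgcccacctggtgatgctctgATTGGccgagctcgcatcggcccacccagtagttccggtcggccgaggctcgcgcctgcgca
Cyp51, chr5:4104698-4104847, minus strand: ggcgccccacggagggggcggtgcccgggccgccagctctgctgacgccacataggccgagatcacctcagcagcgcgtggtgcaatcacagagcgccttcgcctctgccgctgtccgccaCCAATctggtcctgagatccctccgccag
Tm7sf2, chr19:6067851-6068000, minus strand: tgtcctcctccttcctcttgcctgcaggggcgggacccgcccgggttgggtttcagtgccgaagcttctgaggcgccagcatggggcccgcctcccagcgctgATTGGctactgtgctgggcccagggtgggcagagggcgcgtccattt

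The deposited values were log2 signals that had been summarised and normalised by the distribution free weighted (DFW) method, and their spread was strongly compressed. The 6 arrays of a tissue and arm lay within 0.001 log2 units of each other for 99.0% to 99.7% of probe sets, and the median SD within groups was 1.84 to 3.23 millionths of a log2 unit. Differences are therefore given in millionths of a log2 DFW unit, always as the array minus the mean of the 3 Veh arrays of its tissue and arm. They order arrays and do not measure fold changes. The depth of a measurement is set here by the 3 arrays per group, and an exact two-sided permutation test of 3 against 3 arrays cannot give a p below 0.1. In liver, 8 hepatocyte markers averaged 11.59 (Tat) to 14.78 (Alb) log2 units, against 6.22 to 6.92 in hypothalamus. The hypothalamic neuropeptide genes Pmch and Avp averaged 13.18 and 12.14 in hypothalamus. In whole tissue, fewer cells of a type and less RNA per cell cannot be told apart.

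Of the 67 probe sets, 1 was called, that of Sqle in liver under regular γ-oryzanol. Sqle encodes squalene epoxidase, the enzyme that commits squalene to sterols (chr15:59315092-59331193, GRCm38.p6). A call was a percentage of false prediction (pfp) under 0.05 in the rank product test, which ranks all probe sets in each of the 9 Orz-Veh array pairs. On data simulated from the Regular livers this test also called 222 unchanged probe sets, where the livers themselves gave 82 higher and 97 lower calls. A pfp under 0.05 is therefore no strict error rate here. In liver under regular γ-oryzanol 0.215% of all 45101 probe sets were called lower and 0.182% higher. In the other comparisons 0 of 67 sterol probe sets were called. The share of all probe sets called lower and higher was there 0.180% and 0.297% in liver under Nano-Orz, 0.379% and 0.177% in hypothalamus under regular γ-oryzanol, and 0.723% and 0.242% in hypothalamus under Nano-Orz. By limma, a moderated linear model, no probe set on the array passed an adjusted p of 0.05 in any of the 4 comparisons. At an unadjusted p under 0.05 it counted 1 of 67 sterol probe sets in Regular livers (4.58% of all), 3 in Nano livers (4.34%), 4 in the Regular hypothalamus (5.68%) and 3 in the Nano hypothalamus (6.10%).

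Sqle stood at -578, -752 and -387 millionths in Regular-Orz livers 1, 2 and 3, against 119, 352 and -471 in Regular-Veh livers 1, 2 and 3. The groups overlapped, because Regular-Veh 3 lay below Regular-Orz 3. The mean difference was -573 with a limma standard error of 244 (pfp 0.0064, limma p 0.0683, adjusted p 1). The call was lost when either of 2 control arrays was left out. The pfp was 0.204 without Regular-Veh 1 (difference -513), 0.211 without Regular-Veh 2 (difference -397) and 0.0242 without Regular-Veh 3 (difference -808). Lower calls on the whole array numbered 16 without Regular-Veh 1 and 10 without Regular-Veh 2, against 97 with all arrays, so the loss was not particular to Sqle. It was also lost after quantile normalisation of the 6 arrays, where the difference was -143 and the pfp 1.24. A probe set of Scarb1 was then the only sterol call.

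In Nano-Orz livers Sqle was at 272, -962 and -431 millionths, against -441, -520 and 960 in Nano-Veh livers. Each group thus held a high and a low array, and the difference of -373 (standard error 553, pfp 0.22) was smaller than the spread. In hypothalamus Sqle was at 2.02, -4.47 and -0.07 millionths in Regular-Orz and at 0.49, -2.19 and 1.70 in Regular-Veh. Its values there were 5.45, -1.07 and 4.58 in Nano-Orz, against 0.643, -0.737 and 0.0933 in Nano-Veh. Neither hypothalamic comparison separated the groups. The spread of Sqle within groups was above that of 99.5% of all probe sets in both liver comparisons, and of 55.3% and 59.6% in the Regular and Nano hypothalamus.

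**Figure D1:**
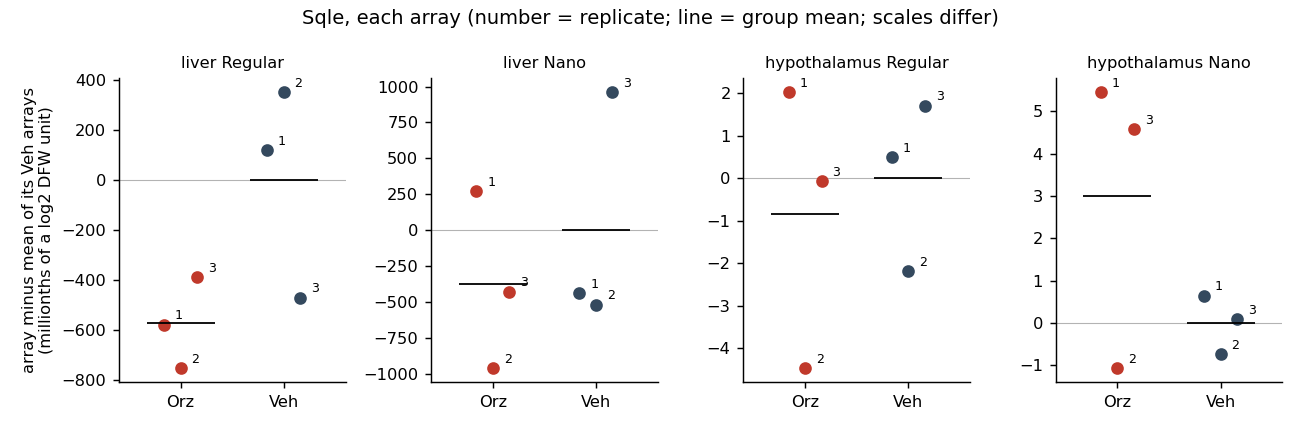
Sqle in each array of the 4 comparisons, as millionths of a log2 DFW unit from the mean of the 3 Veh arrays, with group means as bars and Orz left of Veh. The Regular-Orz livers lie between -752 and -387, and 1 of 3 Regular-Veh livers lies among them at -471.

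Among the enzymes up to squalene, Hmgcs1, which condenses acetoacetyl-CoA and acetyl-CoA into HMG-CoA, was at -19.7, -28.8 and -31.4 millionths in Regular-Orz livers, against 31.6, 13.3 and -44.9 in Regular-Veh livers. Regular-Veh 3 was the lowest of the 6, and the difference of -26.7 had a standard error of 21.4. Idi1, the isomerase that makes dimethylallyl diphosphate, was at -16.2, -148 and -32.9 in Regular-Orz livers and at 54.2, 65.5 and -120 in Regular-Veh livers (difference -65.8, standard error 66.8). Its other probe set, chosen after its values were seen, was at -197, -274 and -277 in Regular-Orz livers and at 227, 460 and -687 in Regular-Veh livers, with a difference of -249, a standard error of 321 and a pfp of 0.0696. Both Idi1 probe sets were highest in Regular-Veh 2. The remaining enzymes of this stretch (Mvk, Pmvk, Mvd, Fdps, Fdft1) had differences of -18.6 to 3.57 in this comparison, with overlapping arrays in each.

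Beyond squalene, 9 of 10 enzymes had a difference below 0 in livers of the Regular arm, and Ebp, the sterol isomerase, had one of 17.9 (standard error 21.0). Cyp51, the lanosterol demethylase, was at -37.2, -66.1 and 8.43 millionths in Regular-Orz livers, against 34.7, 12.5 and -47.2 in Regular-Veh livers (difference -31.6, standard error 29.9). Msmo1, the methylsterol oxidase, was at -39.2, -189 and 93.3 in Regular-Orz livers and at 38.8, 66.7 and -105 in Regular-Veh livers (difference -44.9, standard error 89.2). In each case Regular-Orz 2 and Regular-Veh 3 were the low arrays. Over all 17 synthesis genes, 14 had a difference below 0 with a median of -10.7, where 51.4% of all 18194 genes were below 0. Without Regular-Orz 2 the count was 9 of 17. After quantile normalisation 8 were below 0, 0 above and 9 at exactly 0, and 58.6% of all genes were then at 0.

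In livers of the Nano arm most synthesis genes had a difference smaller than its standard error or only slightly larger. Lss, which cyclises squalene epoxide into lanosterol, was at -90.0, -173 and -289 millionths in Nano-Orz livers, against -116, -179 and 296 in Nano-Veh livers (difference -184, standard error 147). Cyp51 was at 237, -109 and -177 in Nano-Orz livers, against -127, 65.4 and 61.5 in Nano-Veh livers (difference -16.3, standard error 132). Hmgcs1 was at 34.7, -60.8 and -32.3 in Nano-Orz livers, against -12.6, -13.5 and 26.2 in Nano-Veh livers (difference -19.5, standard error 28.8). The highest array was Nano-Veh 3 for Lss and Nano-Orz 1 for Cyp51 and Hmgcs1, and the groups overlapped in all 3 genes.

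Msmo1 was the 1 synthesis gene whose liver arrays did not overlap in the Nano arm, at 16.6, 3.04 and 11.0 millionths in Nano-Orz, against -0.643, 1.05 and -0.403 in Nano-Veh. The other Msmo1 probe set overlapped, with a difference of -10.2. For the brighter one the difference of 10.2 (standard error 3.69, pfp 0.795) was not called, and after quantile normalisation it was -21.6. Another probe set of Hmgcs1, chosen after its values were seen, also separated the groups, with -134, -145 and -222 in Nano-Orz livers against -93.0, -111 and 204 in Nano-Veh livers (difference -167, standard error 97.9, pfp 0.0546). Its level was 5.99 log2 units, below the table's median of 6.49, and the other 4 Hmgcs1 probe sets overlapped between the groups. A probe set of Mvd, the mevalonate diphosphate decarboxylase, chosen in the same way, was at -124, -698 and -944 in Nano-Orz livers and at -462, -726 and 1188 in Nano-Veh livers (difference -589, pfp 0.0992). Both became called once Nano-Orz 1 was left out. Of the 17 synthesis genes, 12 had a difference below 0 in this comparison, against 51.1% of all genes. The count was 7 without Nano-Veh 3. It was 6 after subtraction of each array's median, which added 46.9 millionths to every difference here and left 1.34% of all genes below 0. After quantile normalisation 5 were below 0, 3 above and 9 at exactly 0, and 38.6% of all genes were at 0.

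In the deposited values the synthesis genes tended to be low in the same arrays and high in the same arrays. Each gene's 6 arrays were ranked within a tissue and arm, 1 being the lowest, and the ranks were averaged over the 17 genes. In livers of the Regular arm the mean rank was 3.82, 1.47 and 4.06 in Regular-Orz 1, 2 and 3, against 4.59, 5.29 and 1.76 in Regular-Veh 1, 2 and 3. Regular-Orz 2 and Regular-Veh 3 were low together, with 0 of 17 genes above their own median in either array, while 16 of 17 were above it in Regular-Veh 2. In livers of the Nano arm it was 4.88, 2.59 and 2.59 in Nano-Orz, against 2.76, 3.18 and 5.0 in Nano-Veh, with 14 of 17 genes above their median in Nano-Orz 1 and in Nano-Veh 3.

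Over all genes of the array the mean ranks ran only from 3.22 to 3.80 across the 24 arrays, and over the 15 other sterol genes from 2.60 to 4.60. The genes are not independent of each other, so these ranks describe arrays and are not a test. After subtraction of each array's median, Regular-Orz 2 and Regular-Veh 3 livers kept the lowest mean ranks, at 1.35 and 2.06. After quantile normalisation, which left many ties, the mean ranks of these 6 arrays ran only from 2.94 (Regular-Orz 2) to 4.35 (Regular-Veh 1), and Regular-Veh 3, at 3.32, was no longer among the 2 lowest. In Nano livers median subtraction put Nano-Veh 1 lowest, at 1.59, and left Nano-Orz 1 highest, at 5.59, and after quantile normalisation the range was 2.97 (Nano-Orz 3) to 4.21 (Nano-Orz 1). Kupffer cell and macrophage markers (10 genes) had mean ranks of 1.5, 5.2 and 4.7 in Regular-Orz livers, against 3.4, 1.9 and 4.3 in Regular-Veh livers. On average they lay -12.8 to 14.3 millionths from the Veh mean in Regular-Orz and -14.8 to 8.96 in Regular-Veh. In Nano livers 8 of these 10 markers had a difference above 0 with 0 called, and on average they lay 11.0 to 88.7 millionths from the Veh mean in Nano-Orz and -190 to 141 in Nano-Veh. Their mean ranks there were 3.1, 4.4 and 4.3 in Nano-Orz livers, against 4.6, 1.5 and 3.1 in Nano-Veh livers. Their part in the synthesis gene values was not tested.

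**Figure D2:**
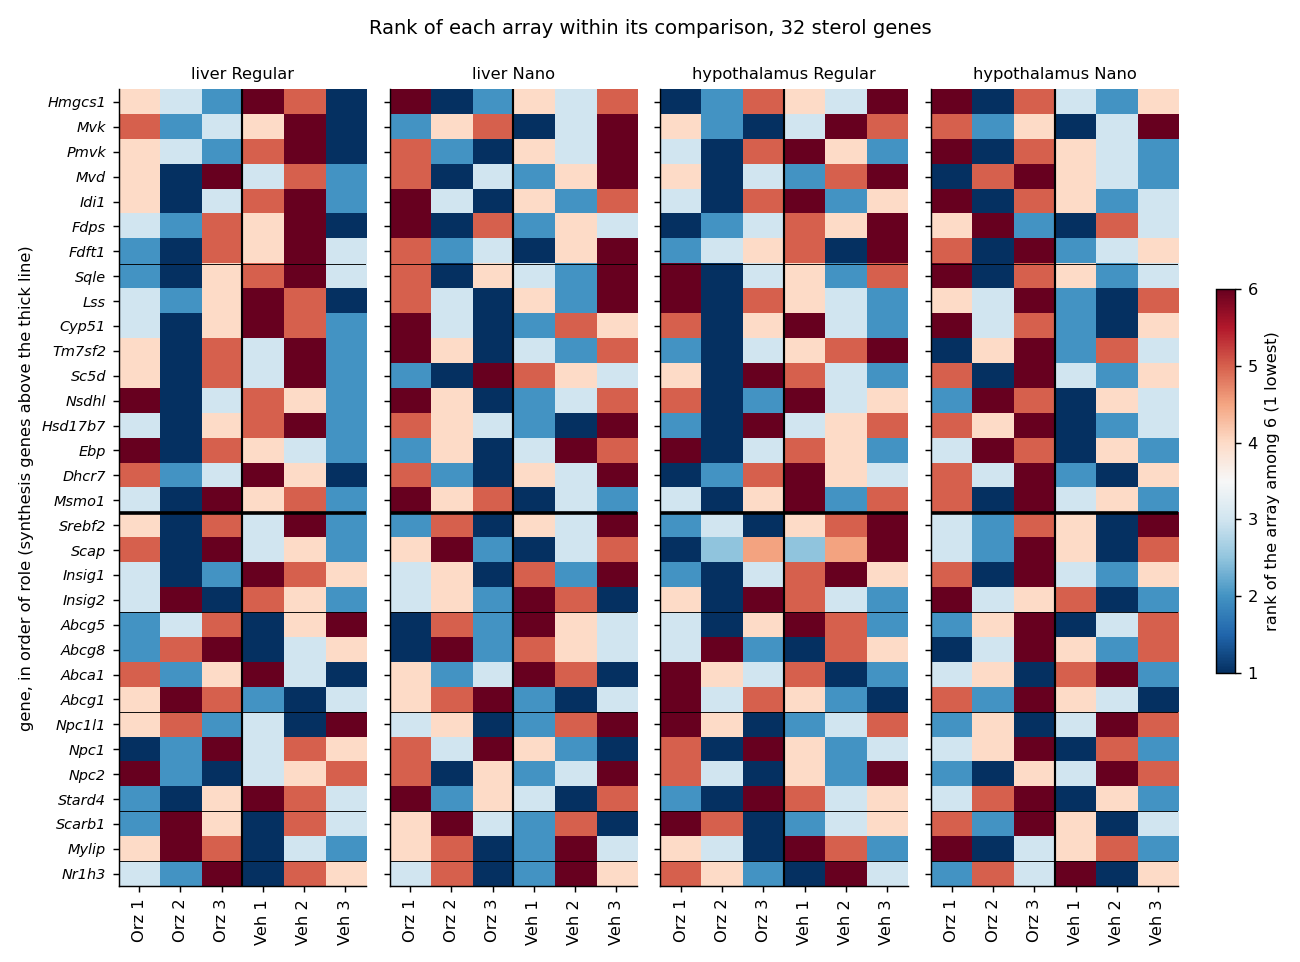
Rank of each of the 32 genes among the 6 arrays of a tissue and arm (colour, 1 lowest to 6 highest), with genes in rows by role and Orz arrays left of Veh arrays. The synthesis genes form low columns in Regular-Orz 2 and Regular-Veh 3 livers and in the Regular-Orz 2 hypothalamus.

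**Figure D3:**
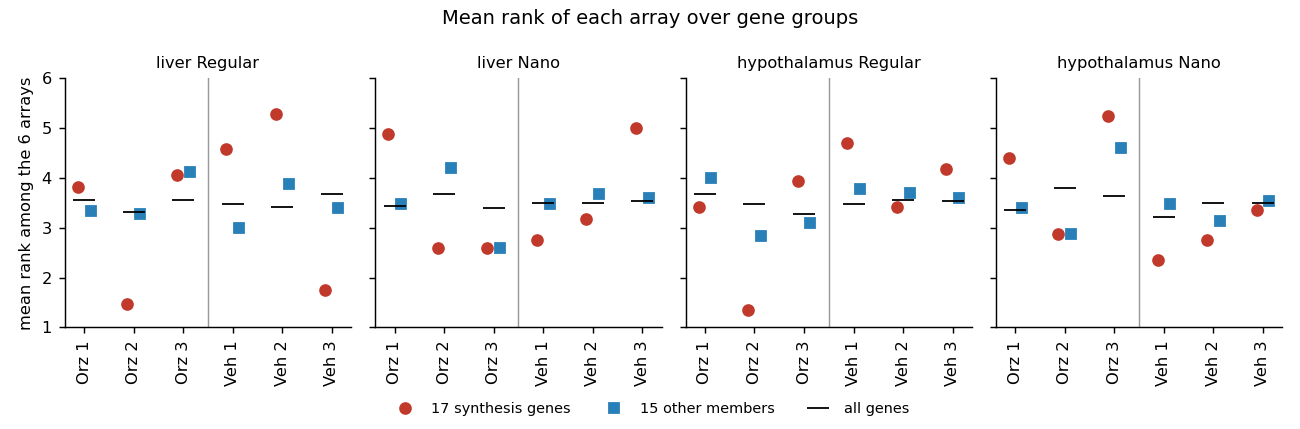
Mean rank of the 17 synthesis genes and of the 15 other sterol genes in each array, from 1 (lowest of 6) to 6 (highest), with Orz left of Veh. Synthesis genes range from 1.35 to 5.29, the other sterol genes from 2.60 to 4.60.

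The synthesis genes also varied more between arrays than most probe sets in liver. The spread of a gene, the SD within groups, was placed among all 45101 probe sets as a percentile. Its median over the 17 synthesis genes was 90.7 in livers of the Regular arm and 97.3 in those of the Nano arm, with 10 and 13 of 17 genes in the top 10%. In hypothalamus the median was 55.2 (Regular) and 60.2 (Nano), with 3 and 2 of 17 in the top 10%. The 15 other sterol genes had medians of 80.0 and 72.0 in liver and 40.8 and 41.4 in hypothalamus. The level moved with the tissue too, since the median level percentile of the synthesis genes was 90.8 and 91.4 in liver and 73.8 and 74.0 in hypothalamus, and its part in the spread was not tested.

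**Figure D4:**
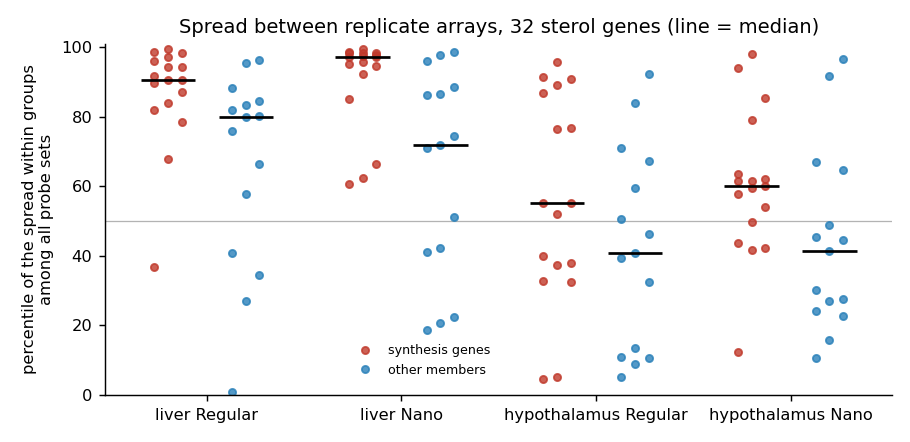
Spread within groups of each sterol gene, as a percentile among all 45101 probe sets, in the 4 comparisons, with synthesis genes and other sterol genes apart. In liver 10 (Regular) and 13 (Nano) of 17 synthesis genes lie in the top 10%, in hypothalamus 3 and 2.

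Of the genes that control the pathway, Insig1, which retains the SREBP2-Scap complex and is itself a target of SREBP2, was at -9.77, -46.4 and -11.8 millionths in Regular-Orz livers, against 6.82, -0.23 and -6.59 in Regular-Veh livers. The groups did not overlap, and the difference of -22.6 (standard error 11.4, pfp 0.48) was not called and was exactly 0 after quantile normalisation. Insig1 did not overlap in the hypothalamus of this arm either, with -5.59, -15.7 and -3.68 in Regular-Orz against -1.05, 2.57 and -1.52 in Regular-Veh (difference -8.34, standard error 3.68, pfp 0.78, and exactly 0 after quantile normalisation). In Nano-Orz livers it was at -14.8, -5.50 and -18.8, against 0.383, -18.0 and 17.7 in Nano-Veh livers. In the Nano hypothalamus it was at 36.5, -12.2 and 48.7 in Nano-Orz, against 0.247, -10.1 and 9.83 in Nano-Veh, so that the arrays of both Nano comparisons overlapped.

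Srebf2 itself was at 0.134, -2.53 and 0.746 millionths in Regular-Orz livers and at -1.53, 3.33 and -1.80 in Regular-Veh livers. In Nano-Orz livers it was at -1.85, 1.47 and -3.10, against -0.431, -1.31 and 1.74 in Nano-Veh livers. The differences of -0.55 (standard error 1.86) and -1.16 (standard error 1.56) were within the spread, and the one in the Regular arm turned positive when Regular-Orz 2 or Regular-Veh 2 was left out. In the hypothalamus of the Regular arm Srebf2 did not overlap, with -3.58, -2.68 and -5.05 in Regular-Orz against -2.32, 0.947 and 1.37 in Regular-Veh (difference -3.77, standard error 1.29, limma p 0.0358, adjusted p 1). The other Srebf2 probe set overlapped there, with a difference of -1.84. In the Nano hypothalamus that other probe set was higher in Nano-Orz without overlap (difference 4.72), while the one that stood for Srebf2 overlapped (difference 0.94). Scap and Insig2 overlapped between groups in all 4 comparisons on the probe set that stood for the gene.

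Among the efflux transporters, Abcg1, which loads sterol onto high-density lipoprotein, did not overlap in either liver comparison on its brighter probe set. It was at 0.798, 5.85 and 2.53 millionths in Regular-Orz livers, against 0.385, -0.963 and 0.577 in Regular-Veh livers (difference 3.06, standard error 1.51). In the Nano arm it was at 3.74, 4.07 and 6.0 in Nano-Orz livers, against 0.326, -0.687 and 0.362 in Nano-Veh livers (difference 4.60, standard error 0.825, limma p 0.00311, adjusted p 1). These were small differences on the array's scale, with rank product pfp of 1.16 and 1.08. The one in the Regular arm was -28.2 after quantile normalisation. The other Abcg1 probe set overlapped in both liver comparisons, with differences of 3.71 (Regular) and 0.98 (Nano). Abca1, Abcg5 and Abcg8 overlapped between groups in both liver comparisons, with differences of -81.7 (Abcg5, Nano arm, standard error 77.9) to 7.70 (Abcg8, Regular arm, standard error 6.03).

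Mylip, the ligase that lowers lipoprotein uptake, was at 7.65, 31.5 and 28.8 millionths in Regular-Orz livers, against -2.91, 4.90 and -1.98 in Regular-Veh livers. The groups did not overlap, and the difference of 22.7 (standard error 7.29, limma p 0.0283, adjusted p 1, pfp 0.508) was not called and was exactly 0 after quantile normalisation. In Nano-Orz livers it was at -0.835, 1.43 and -2.51, against -1.29, 2.55 and -1.26 in Nano-Veh livers (difference -0.64, standard error 1.63). Scarb1, the receptor that takes up sterol from high-density lipoprotein, differed by 8.0 (standard error 7.86) between Regular livers and by 5.94 (standard error 5.11) between Nano livers, both with overlapping arrays. Npc1, which exports cholesterol from late endosomes, was at 111, 22.6 and 152 in Nano-Orz livers, against 27.8, 13.9 and -41.7 in Nano-Veh livers. It was chosen after its values were seen, and its difference of 95.1 had a pfp of 0.166. The oxysterol receptor Nr1h3 (LXRα) overlapped in all 4 comparisons, with differences of 6.62 between Regular livers and -1.96 between Nano livers.

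In the hypothalamus of the Regular arm, 15 of 17 synthesis genes had a difference below 0 (median -2.15), where 51.8% of all genes did. The genes that did not overlap were Fdps, Tm7sf2, Srebf2 and Insig1, all lower in Regular-Orz, that is 4 of 32 genes, against 5.19% of all genes lower and 5.03% higher without overlap. Fdps, farnesyl diphosphate synthase, was at -22.5, -14.9 and -11.9 millionths in Regular-Orz, against 2.35, -7.92 and 5.57 in Regular-Veh (difference -16.4, standard error 4.76, limma p 0.0202, adjusted p 1). After quantile normalisation its difference was 25.3. The other Fdps probe set overlapped, with a difference of -1.48. Tm7sf2, a sterol C14 reductase, was at -22.4, -55.6 and -18.1 in Regular-Orz, against -12.6, 3.53 and 9.05 in Regular-Veh (difference -32.1, standard error 12.5, pfp 0.249, and exactly 0 after quantile normalisation).

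The count depended on 1 array and on quantile normalisation. The mean rank of the synthesis genes was 3.41, 1.35 and 3.94 in Regular-Orz hypothalamus 1, 2 and 3, against 4.71, 3.41 and 4.18 in Regular-Veh. Without Regular-Orz 2 the count below 0 was 10 of 17. After quantile normalisation 2 of 17 were below 0, 8 above and 7 at exactly 0. Of all genes 20.0% were then below 0 and 41.9% at 0. Median subtraction left 16 of 17 below 0, with 74.8% of all genes. The 10 oligodendrocyte markers measured were below 0 as well, 10 of 10 with 0 called, and had mean ranks of 2.0, 1.2 and 5.5 in Regular-Orz, against 3.75, 3.05 and 5.5 in Regular-Veh. On average they lay -162 to 75.8 millionths from the Veh mean in Regular-Orz and -47.1 to 49.1 in Regular-Veh. Of 8 hepatocyte markers, 7 were below 0 in this comparison and 2 were called lower. Microglia markers were below 0 in 6 of 6 genes, with mean ranks of 1.83, 3.0 and 3.0 in Regular-Orz against 3.83, 4.0 and 5.33 in Regular-Veh, and macrophage markers in 9 of 10, with 0 called in either list. On average the microglia markers lay -23.0 to -3.25 millionths from the Veh mean in Regular-Orz and -2.36 to 3.39 in Regular-Veh. Other lists were mixed, with 1 of 4 neuron, 3 of 6 astrocyte and 2 of 4 choroid plexus markers below 0. Of 8 hypothalamus markers 5 were below 0 and 1 was called higher. Their mean ranks were 3.75, 5.5 and 1.75 in Regular-Orz, against 2.88, 4.38 and 2.75 in Regular-Veh. The part of these markers in the sterol gene values was not tested.

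In the hypothalamus of the Nano arm, 0 of 17 synthesis genes had a difference below 0 (median 1.85), where 44.5% of all genes did. Hsd17b7, a sterol 3-ketoreductase, was the 1 gene without overlap, at 8.61, 3.92 and 10.1 millionths in Nano-Orz against -1.51, -0.454 and 1.97 in Nano-Veh (difference 7.55, standard error 1.97, limma p 0.0137, adjusted p 1, pfp 0.608). The other probe sets of Hsd17b7 overlapped, with differences of 0.028, -0.21 and 0.19. Across all genes 6.67% were higher and 4.51% lower without overlap. Cyp51 was at 13.7, 0.967 and 9.58 in Nano-Orz, against -0.626, -3.60 and 4.23 in Nano-Veh (difference 8.08, standard error 4.05). Mean ranks of the synthesis genes were 4.41, 2.88 and 5.24 in Nano-Orz, against 2.35, 2.76 and 3.35 in Nano-Veh, so that Nano-Orz 2 lay among the vehicle arrays.

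All genes leaned up after quantile normalisation of these 6 arrays, with 2.98% of all genes below 0 and 17 of 17 synthesis genes above it. Subtraction of the median left 1.17% of all genes below 0. Nano-Veh 1 and Nano-Veh 2 had highest values of 16.36 and 16.24 log2 units, against 14.72 in the other 4 arrays, and without these 2 arrays, which leaves 1 control array, 3 of 17 synthesis genes were below 0. The 4 choroid plexus markers were all called lower in Nano-Orz, and the arrays of 1 of them did not overlap. Their mean ranks were 1.5, 2.5 and 3.5 in Nano-Orz, against 5.75, 5.25 and 2.5 in Nano-Veh. Nano-Veh 3 thus lay among the Nano-Orz arrays. On average the markers lay -9113 to -6335 millionths from the Veh mean in Nano-Orz and -6744 to 4042 in Nano-Veh. The part of these markers in the sterol gene values was not tested.

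**Figure D5:**
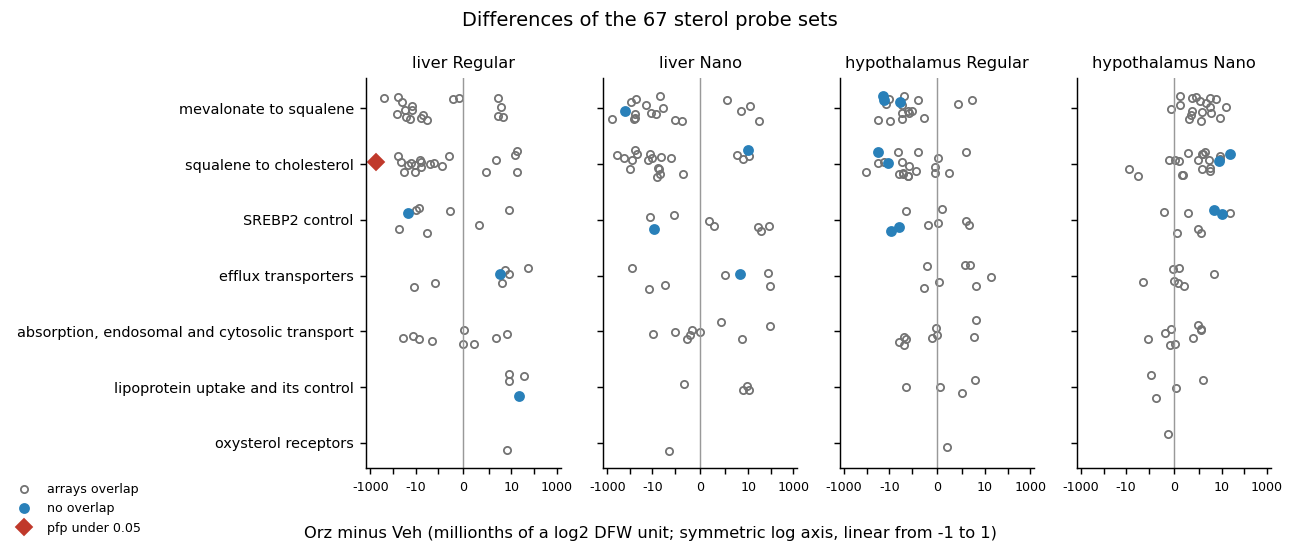
Orz minus Veh difference of each of the 67 probe sets in the 4 comparisons, in millionths of a log2 DFW unit on a scale that is linear near 0 and logarithmic beyond, with roles in rows and probe sets without overlap or called marked by colour. Sqle in Regular livers (-573) is the only call, and 52 of 67 probe sets lie above 0 in the Nano hypothalamus.

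Few sterol genes separated the liver groups, at about the share of all genes. Without overlap were 2 genes higher and 1 lower of 32 in livers of the Regular arm, against 4.51% and 5.0% of all genes. In livers of the Nano arm 2 were higher and 0 lower, against 4.73% and 4.29%. Over all 67 probe sets, 2 were higher and 1 lower without overlap in Regular livers (5.02% and 4.23% of all probe sets) and 2 and 2 in Nano livers (4.34% and 4.67%). In the Regular hypothalamus 0 were higher and 7 lower (5.87% and 5.04%), and in the Nano hypothalamus 4 and 0 (6.18% and 4.95%). Differences below 0 were found for 42 of 67 probe sets in Regular livers (48.0% of all), 44 in Nano livers (52.0%), 46 in the Regular hypothalamus (50.8%) and 15 in the Nano hypothalamus (48.3%). Several probe sets of 1 gene often differed in sign. Of the 19 genes with more than 1 probe set, 11 in Regular livers, 12 in Nano livers, 8 in the Regular hypothalamus and 8 in the Nano hypothalamus had probe sets on both sides of 0.

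The difference between the arms was tested as an interaction in limma within each tissue. In liver 0 of 45101 probe sets and 0 of the 67 sterol probe sets had an adjusted p under 0.05, and the smallest adjusted p of a sterol probe set was 0.795. Of the sterol probe sets 1, that of Mylip, had an unadjusted p under 0.05, with a Nano effect minus Regular effect of -23.3 millionths (standard error 7.77, limma p 0.0152), against 5.50% of all probe sets. In hypothalamus 0.00443% of all probe sets and 0 of 67 sterol probe sets passed, with a smallest adjusted p of 0.274. At an unadjusted p under 0.05 there were 7 sterol probe sets, of Fdps, Srebf2, Sc5d, Fdft1, Scap, Mvd and Tm7sf2, against 6.87% of all probe sets. In all 7 the Nano effect lay above the Regular effect. Only those of Fdps and Tm7sf2 were the probe sets that stood for the gene. The probe sets that stood for Srebf2, Sc5d, Fdft1, Scap and Mvd had a limma p of 0.122, 0.972, 0.205, 0.607 and 0.262. For Fdps the difference between the arms was 19.4 (p 0.0303) and for Tm7sf2 32.6 (p 0.0346).

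The signal levels of these genes were the same in Orz and Veh groups to 2 decimals. The values of each tissue and arm appear to have been normalised separately, so levels set across them are not tested, and signals of different probe sets are not compared. Sqle was at 8.69 log2 units in livers and 10.08 in hypothalamus of the Regular arm, and at 8.20 and 10.04 in those of the Nano arm. Abcg1 was likewise higher in hypothalamus, at 9.95 and 9.73 against 8.28 and 7.68 in liver. The bile exporter Abcg5 had 9.78 and 9.70 in liver and 6.51 and 6.03 in hypothalamus. Sc5d, the lathosterol oxidase, had 12.36 and 12.15 in liver and 9.33 and 9.60 in hypothalamus. Insig2 had 12.06 and 11.13 in liver and 9.64 and 9.48 in hypothalamus. Npc1l1, the sterol absorption protein of gut and, in humans, liver, had 6.54 in both liver arms and 6.53 and 6.64 in hypothalamus. Hmgcs1 had 12.29 and 11.91 in liver, and Srebf2 had 7.80 and 7.41.

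A further list of genes of sterol handling and its control, 28 of which had a probe set, had 0 calls in all 4 comparisons. Of these 28 genes, 18 in Regular livers, 9 in Nano livers, 16 in the Regular hypothalamus and 9 in the Nano hypothalamus had a difference below 0. Their median differences were -0.69, 1.34, -0.14 and 0.25 millionths in the same order, nearer 0 than those of the synthesis genes (-10.7, -6.06, -2.15 and 1.85).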

How the data were processed

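The arrays were Affymetrix Mouse430_2 arrays of liver and hypothalamus, 3 per group, and the labels describe them as biological replicates. Per the labels and the study's methods, the authors summarised and normalised the probes by the distribution free weighted (DFW) method and deposited the result as log2 signal, 1 column per array, for 45101 probe sets. Each tissue and arm appears to have been processed separately, which the sources used here do not state outright. The cause of the compressed spread between arrays was not tested. Another 24 columns, in 4 tables of a tissue and arm, could not be tied to single samples and were not used.

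Gene symbols came from the platform annotation: 34958 probe sets had 1 symbol, 932 had several and 9211 had none here. The tests were the rank product named in the study's methods, over all 9 array pairs of a comparison with 100 permutations (Python 3.11.15, numpy 2.4.6), with a pfp under 0.05 as a call, and limma 3.58.1 in R 4.3.3 with Benjamini-Hochberg adjustment over all probe sets. On simulated data both recovered most of the planted changes, which were 100, 1000 or 10000 millionths in size. Most sterol differences here were smaller than 100, so this recovery does not show what the tests would find at their size. The rank product also called 222 unchanged probe sets there. Alternatives were a pfp under 0.01, quantile normalisation, median subtraction, no dim probe sets, division by the SD, a replicate block, 1 probe set per gene, limma, the methods' t-test and leaving out each array. The members, gene lists and tests were chosen with earlier results of these data known. Genes were given per array if they were called, were among the 3 largest differences without overlap in a comparison, were Srebf2 or Hmgcs1, which the study measured by RT-qPCR, or had levels at either end. Idi1, Cyp51, Lss, Npc1 and others were added as examples after their values were seen. Some listed genes are not reported here.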

Additional observations from a re-analysis of the deposited data

Results flagged for a closer look

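A probe set of Scap, the escort protein of SREBP2, separated the Nano arrays in opposite directions in the 2 tissues. In liver it was at -12.6, -4.21 and -9.77 millionths of a log2 DFW unit in Nano-Orz, against 1.05, -0.285 and -0.77 in Nano-Veh, a difference of -8.86 (standard error 2.36). In hypothalamus it was at 14.3, 9.40 and 6.28 in Nano-Orz, against -2.92, 1.74 and 1.18 in Nano-Veh, a difference of 9.98 (standard error 2.54). The liver effect minus the hypothalamus effect was -18.8, and this difference was not tested. This probe set was not called in either tissue. Its Nano-Veh level was 5.98 log2 units in liver and 6.67 in hypothalamus, below the medians of 6.49 and 7.15 over all probe sets. Of all probe sets, 4.67% were lower without overlap in Nano livers and 6.18% higher in the Nano hypothalamus. The other probe set of Scap, which was the brighter, overlapped between Nano-Orz and Nano-Veh in both tissues, with differences of 0.33 in liver and 0.13 in hypothalamus.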

How the results depend on the processing

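With 3 arrays per group and values compressed within each tissue and arm, differences order the arrays and their size has no biological scale. The Sqle call in Regular livers was the 1 sterol call. The count was 0 after division of each probe set by its SD, 0 by limma and by limma with trend and robust settings, and 0 by the methods' t-test after Benjamini-Hochberg adjustment. Division by the SD left 0 calls on the whole array in all 4 comparisons. The methods' t-test at its unadjusted threshold counted 1 (Mylip) in Regular livers, 2 in Nano livers (Abcg1 and a Scap probe set), 4 in the Regular hypothalamus (Fdps, Srebf2, and probe sets of Fdft1 and Mvd) and 3 in the Nano hypothalamus (Hsd17b7 and probe sets of Srebf2 and Scap). Quantile normalisation turned the calls of all probe sets in Regular livers to 77 higher and 22 lower, where the deposited values gave 82 and 97, and in the Regular hypothalamus to 6 and 102, where they gave 80 and 171.

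Leaving out 1 array gave 0 to 2 calls in Regular livers (0 without Regular-Veh 1 or 2, and Sqle and Idi1 without Regular-Veh 3), 0 to 3 in Nano livers (3 without Nano-Orz 1, and 1 without Nano-Orz 2), 0 to 1 in the Regular hypothalamus (a Hsd17b7 probe set without Regular-Orz 3) and 0 in the Nano hypothalamus. Synthesis genes with a difference below 0, counted under alternatives chosen after seeing the data, numbered 9 to 16 in Regular livers, 7 to 15 in Nano livers, 10 to 17 in the Regular hypothalamus and 0 to 3 in the Nano hypothalamus when 1 array was left out. Under quantile normalisation they numbered 8, 5, 2 and 0 in the same order, with 9, 9, 7 and 0 genes at exactly 0. Under median subtraction they numbered 14, 6, 16 and 0. Without Nano-Veh 1 and 2 together, which leaves a single control array, 3 were below 0 in the Nano hypothalamus. The causes of these changes were not tested.

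The sign turned under quantile normalisation for Abcg1 in Regular livers (-28.2), Msmo1 in Nano livers (-21.6) and Fdps in the Regular hypothalamus (25.3), and under median subtraction for Hmgcs1 (27.4) and Srebf2 (45.7) in Nano livers, where it added 46.9 to every difference alike, so these turns are fixed by the shift and say nothing particular of these genes. Leaving out 1 array, Srebf2 in Regular livers ranged from -1.45 to 1.11, and in Nano livers Hmgcs1 ranged from -46.6 to 1.21 on its brightest probe set there and from -107.8 to 22.1 on the probe set that was brightest in hypothalamus. Of 64 other tries on named differences 48 kept direction and call, and 9 became exactly 0, all under quantile normalisation. Of 96 that left out an array 90 kept both. Limma and the replicate block leave the difference as it is, so direction could not turn under these settings. Only Sqle in Regular livers was called at the start, and limma called no probe set. For the other differences, keeping the call meant staying uncalled, so these counts are no measure of robustness. The arm interaction gave 1 sterol probe set in liver (Npc1l1, adjusted p 0.016) after quantile normalisation of the 12 arrays, and 0 in all other tries.

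Over probe sets, deviations of same-numbered Orz and Veh arrays correlated at -0.118 to 0.131 in liver. Different-numbered pairs ran there from -0.157 to 0.136. In hypothalamus all same-numbered pairs were above 0, at 0.039 to 0.269, against -0.235 to 0.017 for different-numbered pairs. The correlations of an Orz array with the 3 Veh arrays nearly cancelled, as for Nano-Orz 1 in hypothalamus (0.228, -0.227 and -0.002). A high same-numbered value thus goes with low different-numbered ones, and the 2 ranges are not independent. What same-numbered arrays shared beyond the number was not tested. With the replicate number as a block the rank product counted 1, 0, 0 and 0 sterol probe sets (Sqle pfp 0.0398) and limma 0 in each. Over the whole array the block gave 150 higher and 137 lower in Regular livers, and the interaction with a block gave 0 in both tissues.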
